A study of Mus musculus with 12 samples.

Results

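Mitosis and cytokinesis genes are 44 genes whose products drive and carry out the division of the nucleus and of the cell body. They were measured in spleens of female BALB/cByJ and BALB/cJ mice, 2 colonies of the inbred BALB/c mouse. The spleens came from 12 animals in 4 groups of 3: immunized BALB/cByJ, immunized BALB/cJ, naïve BALB/cByJ and naïve BALB/cJ. Immunized mice received 1 intraperitoneal dose of cartilage proteoglycan (PG, 100 µg of protein) in 2 mg of the adjuvant dimethyldioctadecyl-ammonium bromide (DDA), and naïve mice received nothing. Spleens of immunized mice were taken on day 12, and no day is listed for naïve mice. RNA from a piece of each of the 12 spleens was hybridized to 1 whole-genome oligonucleotide array. No group received the adjuvant alone, so the antigen and the adjuvant cannot be told apart. The dose is that of the array labels, and the study's methods state a lower dose for its arthritis experiments. The array animals were matched for age, and the labels give no age.

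Members were found by exact gene symbol in the annotation of the arrays. Of the 44 genes, 43 matched 94 of the 45037 probe sets tested (a probe set is a group of oligonucleotides that reads 1 transcript), 13 genes by 1 probe set and 30 genes by several. Ccnb1 matched none and was not analysed here. Each value is a log2 expression value relative to the median of the 12 arrays for that probe set. A value of 0 is therefore the middle array, a difference of 1 is 2-fold, and levels of different genes cannot be compared.

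In background, a dividing cell enters mitosis when CDK1 is activated by its cyclins. Its condensed chromosomes are then attached to the spindle through their kinetochores, the spindle assembly checkpoint holds the cell until every attachment is made, and the anaphase-promoting complex, switched on by Cdc20, starts separation of the chromosomes. Cytokinesis then divides the cell body. Most of these genes are transcribed late in the cell cycle from promoters with a short element called the cell cycle genes homology region (CHR), which is bound by the DREAM and MuvB complexes, often close to a CCAAT box, which is bound by NF-Y. In the adult mouse, the spleen holds dividing lymphocytes and also dividing erythroid precursors.

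Promoter windows from 250 bases before to 50 bases after an annotated start site were looked up in RefSeq tables of GRCm38.p6. There were 40 windows for 37 of the members, and windows of 1 gene can overlap and share matches. None was looked at for Aurkb, Ccna2, Ccnb1, Cdc25c, Incenp, Kif20a or Tpx2. The letters TTTGAA (CHR) on either strand stood in 31 of the 40 windows (77.5%), compared with 17.9% of all 32851 windows of this length. The letters CCAAT on either strand stood in 28 windows (70.0%), compared with 37.4% of all windows. Both stood in 25 windows (62.5%), compared with 6.95% of all windows. Among the 65 windows of other mitosis genes 49.2% held the CHR letters, among 40 windows of DNA replication genes 17.5% did, and among 21 windows of erythroid genes 14.3% did. A match is a description of the letters and not a measured binding site. The 40 CHR matches had their first base at a median of 10 bases before the start site, and the 66 CCAAT matches at a median of 66.5 bases before it.

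**Figure D1:**
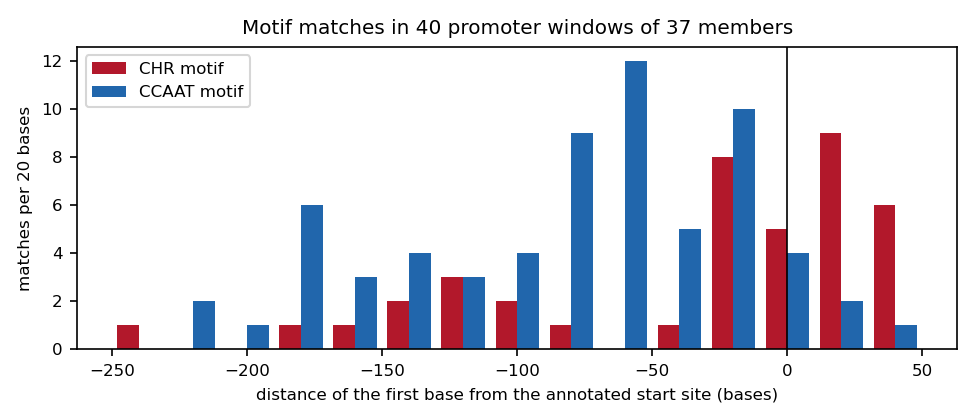
Number of motif matches (vertical axis, matches per 20 bases) against the distance of their first base from the annotated start site (horizontal axis, bases) in 40 promoter windows of 37 members. CHR matches (red) gather around the start site, with a median 10 bases before it, and CCAAT matches (blue) lie mostly before it, with a median 66.5 bases before it.

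Windows of 6 members whose values are given below are printed because they show these letters in different arrangements. Capitals mark CHR and CCAAT matches on either strand, so that TTCAAA and ATTGG are the matches read from the other strand. Cdc20 (chr4:118437294-118437593, minus strand), Plk1 (chr7:122159185-122159484, plus strand), Racgap1 (chr15:99651607-99651906, minus strand) and Cdca8 (chr4:124936868-124937167, minus strand) held both motifs. In Cdca8 the CHR and a CCAAT match overlapped by 1 base and read as 1 run of capitals. Cenpe (chr3:135212313-135212612, plus strand) held CCAAT without the CHR letters. Cep55 (chr19:38054734-38055033, plus strand, the first of its 2 windows) held the CHR letters without CCAAT.
Cdc20: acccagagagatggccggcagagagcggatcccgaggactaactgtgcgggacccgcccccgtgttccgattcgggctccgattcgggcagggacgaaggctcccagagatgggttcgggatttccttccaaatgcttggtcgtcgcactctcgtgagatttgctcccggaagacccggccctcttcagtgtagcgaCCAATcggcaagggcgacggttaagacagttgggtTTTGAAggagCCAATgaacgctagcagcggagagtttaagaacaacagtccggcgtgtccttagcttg
Plk1: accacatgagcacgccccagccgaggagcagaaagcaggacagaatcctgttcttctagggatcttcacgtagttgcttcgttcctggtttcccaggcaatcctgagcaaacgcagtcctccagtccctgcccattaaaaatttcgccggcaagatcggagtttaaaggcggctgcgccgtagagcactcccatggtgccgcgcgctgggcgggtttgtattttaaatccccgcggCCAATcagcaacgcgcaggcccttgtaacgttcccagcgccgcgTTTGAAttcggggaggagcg
Racgap1: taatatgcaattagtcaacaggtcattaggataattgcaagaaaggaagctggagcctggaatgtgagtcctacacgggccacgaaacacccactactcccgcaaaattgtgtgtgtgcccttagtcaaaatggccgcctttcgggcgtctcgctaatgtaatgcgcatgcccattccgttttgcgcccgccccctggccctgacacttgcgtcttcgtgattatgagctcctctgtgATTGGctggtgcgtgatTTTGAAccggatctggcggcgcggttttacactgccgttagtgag
Cdca8: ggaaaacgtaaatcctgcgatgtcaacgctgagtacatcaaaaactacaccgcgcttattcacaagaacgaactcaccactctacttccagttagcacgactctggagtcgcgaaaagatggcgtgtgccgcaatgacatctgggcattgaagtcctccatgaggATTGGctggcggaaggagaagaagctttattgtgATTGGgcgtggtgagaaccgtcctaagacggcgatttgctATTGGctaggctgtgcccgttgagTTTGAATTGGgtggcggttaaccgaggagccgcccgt
Cenpe: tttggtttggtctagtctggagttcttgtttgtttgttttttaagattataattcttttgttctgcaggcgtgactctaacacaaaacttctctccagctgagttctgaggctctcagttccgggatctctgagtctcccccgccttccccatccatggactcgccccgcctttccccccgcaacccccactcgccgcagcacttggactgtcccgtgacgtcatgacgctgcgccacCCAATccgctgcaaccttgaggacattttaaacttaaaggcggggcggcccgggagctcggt
Cep55: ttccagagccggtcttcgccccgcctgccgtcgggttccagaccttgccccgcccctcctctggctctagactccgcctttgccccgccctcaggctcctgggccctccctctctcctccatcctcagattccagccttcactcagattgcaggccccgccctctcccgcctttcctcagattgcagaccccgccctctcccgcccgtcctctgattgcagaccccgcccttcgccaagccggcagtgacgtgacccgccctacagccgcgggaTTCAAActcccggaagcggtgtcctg

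In naïve mice, mitosis and cytokinesis genes were higher in BALB/cByJ spleens than in BALB/cJ spleens. Of the 94 probe sets, 71 passed the test (limma, Benjamini-Hochberg adjusted p under 0.05 over all 45037 probe sets) and all 71 were higher in BALB/cByJ. This is 75.5% of the members' probe sets, beside 4.39% of all probe sets called in either direction and 2.68% called higher in BALB/cByJ. The median log2 difference (BALB/cByJ minus BALB/cJ) was 0.91 over the members, with a range of -0.27 to 1.76, and -0.01 over all probe sets. A called difference over 2-fold was found for 40 probe sets. With the test that the study used, an analysis of variance with Student-Newman-Keuls comparisons, 3 of the 94 passed (Bub1 and Trip13 higher, Cep55 lower), and against a fold of 1.2 in limma 2 passed. By gene, 26 of 43 had every probe set called, 14 had some called and 3 (Kif15, Kif20a and Cep55) had none. The 3 naïve BALB/cByJ arrays lay apart from the 3 naïve BALB/cJ arrays for 82 of the 94 probe sets, higher for 81 of them, while 21.7% of all probe sets separated the naïve colonies. In bulk tissue, fewer cells of a type and less RNA per cell cannot be told apart.

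**Figure D2:**
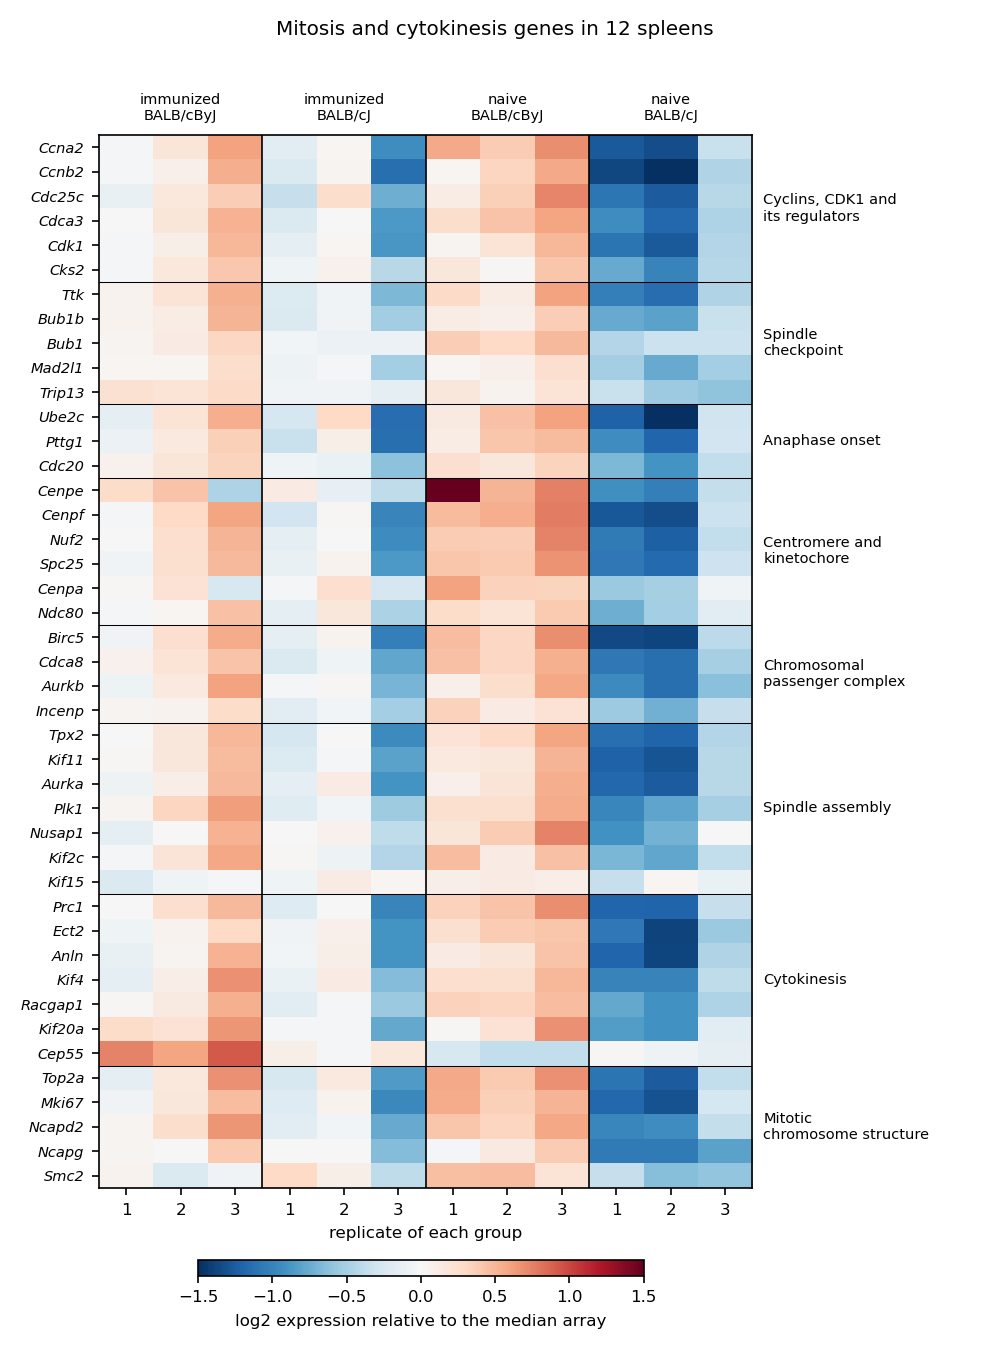
Log2 expression relative to the median array (colour scale, red above and blue below 0) for 43 members (rows, grouped by role, each by its most significant probe set in the naïve colony comparison) in 12 arrays (columns, 3 replicates of each of the 4 groups). Naïve BALB/cByJ arrays are red and naïve BALB/cJ arrays blue in nearly every row; Cep55 is red in immunized BALB/cByJ arrays and blue in naïve BALB/cByJ arrays.

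The members did not differ equally between arrays of a group. The median over the 94 probe sets was 0.15, 0.24 and 0.44 in naïve BALB/cByJ replicates 1, 2 and 3, compared with -0.76, -0.84 and -0.34 in naïve BALB/cJ replicates 1, 2 and 3. Naïve BALB/cJ replicate 2 was the lowest of the 12 arrays for 58 probe sets and replicate 1 for 24, so these 2 animals held the lowest values of most members. Naïve BALB/cByJ replicate 3 was the highest array for 38 probe sets. The count of 71 calls fell to 4 without naïve BALB/cJ replicate 2, to 7 without naïve BALB/cJ replicate 1 and to 9 without naïve BALB/cByJ replicate 3. It was 72 without naïve BALB/cJ replicate 3, 51 without naïve BALB/cByJ replicate 2 and 69 without naïve BALB/cByJ replicate 1. A fit with fewer arrays is a weaker test for every probe set. The share of all probe sets called in these fits is not given here, so the falls cannot be read as particular to the members.

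Erythroid genes moved with the members over the same arrays. The median of 21 erythroid genes was 0.25, 0.42 and 0.71 in naïve BALB/cByJ replicates 1 to 3, compared with -1.30, -1.56 and -0.24 in naïve BALB/cJ replicates 1 to 3. It was -1.06 in immunized BALB/cJ replicate 3, the array that also had the lowest member median among immunized mice (-0.57). Between the naïve colonies 23 of 31 erythroid probe sets, from 18 of 21 genes, were called higher in BALB/cByJ and none lower, with a median log2 difference of 1.55. Among them were Gata1 (1.30) and Tal1 (1.51), transcription factors of the erythroid line, and Rhag (1.86), a membrane protein of red cells. With the mean of the erythroid list of each array as a covariate, 0 of the 94 member probe sets passed in limma (24 at an unadjusted p under 0.05) and the median difference was 0.21. The share of all probe sets called in that fit is not given here, so the loss of calls cannot be read as particular to the members. With the covariate, differences of 18 member probe sets were negative. Among these 18 were 4 called without the covariate, namely Ube2c (-0.12), both called probe sets of Pttg1 (-0.05 each) and 1 of Nusap1 (1416309_at, 1.10 without the covariate and -0.12 with it). Without immunized BALB/cJ replicate 3 and both low naïve arrays (BALB/cJ replicates 1 and 2), a choice made after the data were seen, 0 passed and the median was 0.62, with 68 probe sets at an unadjusted p under 0.05 in limma. A single naïve BALB/cJ array remains in that comparison, and it is assumed to vary like the other arrays. The part of erythroid cells in the colony difference was not tested beyond these values.

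Genes of other tissues also differed between single arrays. Pigment cell genes (7 genes) stood out in 4 arrays. Their median reached 0.88 in replicate 2 of immunized BALB/cByJ, 1.07 in replicate 1 of immunized BALB/cJ, and 2.45 and 1.70 in replicates 1 and 2 of naïve BALB/cJ, while the other 8 arrays lay between -0.27 and 0.04. Without these 4 arrays, which again leaves a single naïve BALB/cJ array, 0 of the 94 member probe sets passed between the naïve colonies in limma (41 at an unadjusted p under 0.05). The median of 11 pancreatic acinar genes was 2.10 in naïve BALB/cByJ replicate 1 and between -0.17 and 0.24 elsewhere. Without that array and 3 immunized arrays with raised heat shock genes 77 member probe sets passed. The part of these tissues in the members' values was not tested further. Because the values hold no signal level, the presence of the defining genes of spleen could not be read from them.

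Cyclins, CDK1 and its regulators were higher in naïve BALB/cByJ spleens. All 6 genes had a called probe set, 9 of 11 probe sets passed and their median difference was 1.18. Cdk1, the kinase that drives entry into mitosis, had 0.04, 0.21 and 0.50 in naïve BALB/cByJ, compared with -1.09, -1.25 and -0.44 in naïve BALB/cJ. The log2 difference was 1.18 (SE 0.248, adjusted p = 0.0222 by limma). The groups did not overlap, and BALB/cJ replicate 3 lay closer to the BALB/cByJ arrays than its companions did. Ccna2 and Ccnb2, the cyclins A2 and B2, differed by 1.52 and 1.42, and Cdc25c, the phosphatase that activates CDK1, by 1.32. Cdca3 (1452040_a_at), a trigger of mitotic entry, had the smallest p of this role, with 0.26, 0.43 and 0.59 in naïve BALB/cByJ and -0.93, -1.18 and -0.47 in naïve BALB/cJ (1.28, SE 0.223, adjusted p = 0.0114). Its other probe sets did not show this. Probe set 1448001_x_at had -0.01, 0.19 and -0.03 in naïve BALB/cByJ and -0.19, -0.07 and 0.01 in naïve BALB/cJ (difference 0.14). Probe set 1448000_at had 0.07, 0.03 and -0.05 in naïve BALB/cByJ and -0.12, -0.03 and 0.21 in naïve BALB/cJ (difference -0.01). The colonies overlapped in both.

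Genes of the spindle assembly checkpoint were higher in naïve BALB/cByJ in 8 of 11 probe sets and in all 5 genes, with a median of 0.71. Bub1, a checkpoint kinase, had the smallest p of all members (1438571_at). It had 0.37, 0.30 and 0.48 in naïve BALB/cByJ, compared with -0.44, -0.32 and -0.32 in naïve BALB/cJ, and differed by 0.75 (SE 0.0842, adjusted p = 0.0013 by limma). Here the 3 BALB/cJ arrays lay close together. In its other probe set (1424046_at) they did not, with 0.14, -0.03 and 0.40 in naïve BALB/cByJ and -1.003, -1.265 and -0.620 in naïve BALB/cJ (1.13, called), and replicate 3 lay nearest to BALB/cByJ, as for Cdk1. Trip13, a remodelling ATPase of the checkpoint protein Mad2, had 0.17, 0.05 and 0.21 in naïve BALB/cByJ and -0.33, -0.54 and -0.61 in naïve BALB/cJ (1429295_s_at, 0.64, SE 0.0831, adjusted p = 0.00359). In Trip13 the lowest array was BALB/cJ replicate 3 and not replicate 2. Ttk, the Mps1 kinase, differed by 1.21, Bub1b (BubR1) by 0.81 and Mad2l1 (Mad2) by 0.71, all called. A further probe set each of Ttk (1442594_at, 0.65), Bub1b (1447362_at, 0.13) and Trip13 (1446760_at, 0.25) was not called. In that of Trip13 the naïve colonies overlapped. Bub1 (1438571_at) and Trip13 (1429295_s_at) stayed called whichever single array was left out. With the erythroid covariate their differences were 0.63 and 0.65, with adjusted p values of 0.308 and 0.317. Their other called probe sets had smaller differences with the covariate, 0.32 for Bub1 (1424046_at) and 0.19 for Trip13 (1429294_at, 0.41 without it).

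Genes of anaphase onset were higher in 6 of 7 probe sets and in all 3 genes, with a median of 0.88. Cdc20, the activator of the anaphase-promoting complex, had 0.24, 0.18 and 0.34 in naïve BALB/cByJ and -0.67, -0.89 and -0.37 in naïve BALB/cJ (1439377_x_at, 0.90, SE 0.154, adjusted p = 0.0109 by limma). Ube2c, the ubiquitin-conjugating enzyme of that complex, differed by 1.40 and Pttg1, the separase inhibitor securin, by 1.14. With the erythroid covariate these differences were -0.12 and -0.05. The Pttg1 probe set 1419620_at (0.62 without the covariate) was not called. Of the subunits of the complex itself, 0 of 43 probe sets of 14 genes passed in limma, and their median was 0.07. At an unadjusted p under 0.05 there were 7, beside 18.7% of all probe sets. Anapc1 had the smallest p among them (-0.40, adjusted p = 0.0599). Fzr1, the other activator of the complex, was listed with them and differed by 0.92 (adjusted p = 0.104).

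Centromere and kinetochore genes were higher in 11 of 12 probe sets and in all 6 genes, with a median of 0.83. Cenpe, the kinetochore motor protein, had the largest difference of all members (1439040_at), with 1.70, 0.51 and 0.76 in naïve BALB/cByJ and -0.92, -1.03 and -0.35 in naïve BALB/cJ (1.76, SE 0.300, adjusted p = 0.0109 by limma). BALB/cByJ replicate 1 was by far the highest array. Its other probe set differed by 1.29. Cenpf differed by 1.57 (1427161_at), and by 0.75 (1458447_at) and 0.54 (1452334_at) in its other called probe sets. Nuf2, Spc25 and Ndc80, subunits of the complex that holds microtubules, differed by 1.38, 1.34 and 0.75. The other Spc25 probe set (1453815_at, 0.52) was not called. Cenpa, the histone variant of centromeres, had 3 called probe sets at 0.43 to 0.86.

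The chromosomal passenger complex corrects wrong attachments and later directs cytokinesis. Its 4 genes were all higher, in 10 of 11 probe sets, with a median of 1.15. Cdca8, the subunit borealin, had 0.44, 0.32 and 0.53 in naïve BALB/cByJ and -1.07, -1.13 and -0.50 in naïve BALB/cJ (1436847_s_at, 1.33, SE 0.191, adjusted p = 0.00642 by limma). Birc5 (survivin) differed by 1.53, Aurkb, the kinase of the complex, by 1.21 and Incenp, its scaffold, by 0.77. One of 5 Incenp probe sets (1441314_at) was not called, at 0.08.

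Spindle assembly genes were higher in 9 of 17 probe sets and in 6 of 7 genes, with a median of 0.98, the lowest share of calls among the roles. Plk1, the polo-like kinase, had 0.25, 0.24 and 0.56 in naïve BALB/cByJ and -0.98, -0.79 and -0.50 in naïve BALB/cJ (1448191_at, 1.10, SE 0.173, adjusted p = 0.00825 by limma). Kif11, the motor that pushes the spindle poles apart, differed by 1.26 and Aurka, the kinase of the poles, by 1.22. A further probe set of Kif11 (1452315_at, 0.99) and the other of Aurka (1440129_at, 0.44) were not called. Kif15, a second motor of the spindle, was the gene of this role without a call. It had 0.09, 0.13 and 0.10 in naïve BALB/cByJ and -0.34, 0.03 and -0.10 in naïve BALB/cJ (1431718_at, 0.24, adjusted p = 0.195). Its colonies did not overlap, but BALB/cJ replicate 2, the lowest array for most members, was at 0.03.

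Cytokinesis genes were higher in 8 of 12 probe sets and in 5 of 7 genes, with a median of 1.01. Racgap1, a subunit of centralspindlin, had 0.35, 0.32 and 0.46 in naïve BALB/cByJ and -0.77, -0.90 and -0.46 in naïve BALB/cJ (1421546_a_at, 1.09, SE 0.159, adjusted p = 0.00703 by limma). Its probe set 1451358_a_at had 0.14, 0.18 and 0.38 in naïve BALB/cByJ and -0.75, -0.83 and -0.37 in naïve BALB/cJ (0.89, called). Its probe set 1441889_x_at had -0.05, 0.08 and -0.02 in naïve BALB/cByJ and 0.18, -0.03 and 0.00 in naïve BALB/cJ (-0.05, not called), so 2 of 3 probe sets separated the colonies. Prc1, which bundles the central spindle, differed by 1.40, Ect2, which activates RhoA at the cleavage site, by 1.35, Anln (anillin) by 1.25 and the motor Kif4 by 1.13. The other Anln probe set, also called, differed by 0.63. Kif20a had 0.01, 0.22 and 0.68 in naïve BALB/cByJ and -0.84, -0.90 and -0.16 in naïve BALB/cJ. Its difference of 0.94 (SE 0.246) stood just outside the threshold, with an adjusted p of 0.0506. Cep55, which acts at abscission, the last step of cytokinesis, did not follow the others and is described with immunization.

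Genes of mitotic chromosome structure were higher in 10 of 13 probe sets and in all 5 genes, with a median of 0.93. Ncapg, a condensin subunit, had -0.02, 0.13 and 0.38 in naïve BALB/cByJ and -1.06, -1.06 and -0.80 in naïve BALB/cJ (1429172_a_at, 1.13, SE 0.175, adjusted p = 0.00775 by limma). The 3 BALB/cJ arrays were all clearly below the BALB/cByJ arrays. Top2a, the topoisomerase that untangles chromosomes, differed by 1.46, Mki67, the proliferation antigen Ki-67, by 1.39, and Smc2, a core subunit of condensin, by 0.90. Top2a had 2 of 3 probe sets called, with a lowest difference of 0.14, and Smc2 had 3 of 5, with a lowest of 0.40. Both probe sets of Ncapd2, a further condensin subunit, were also called higher.

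**Figure D3:**
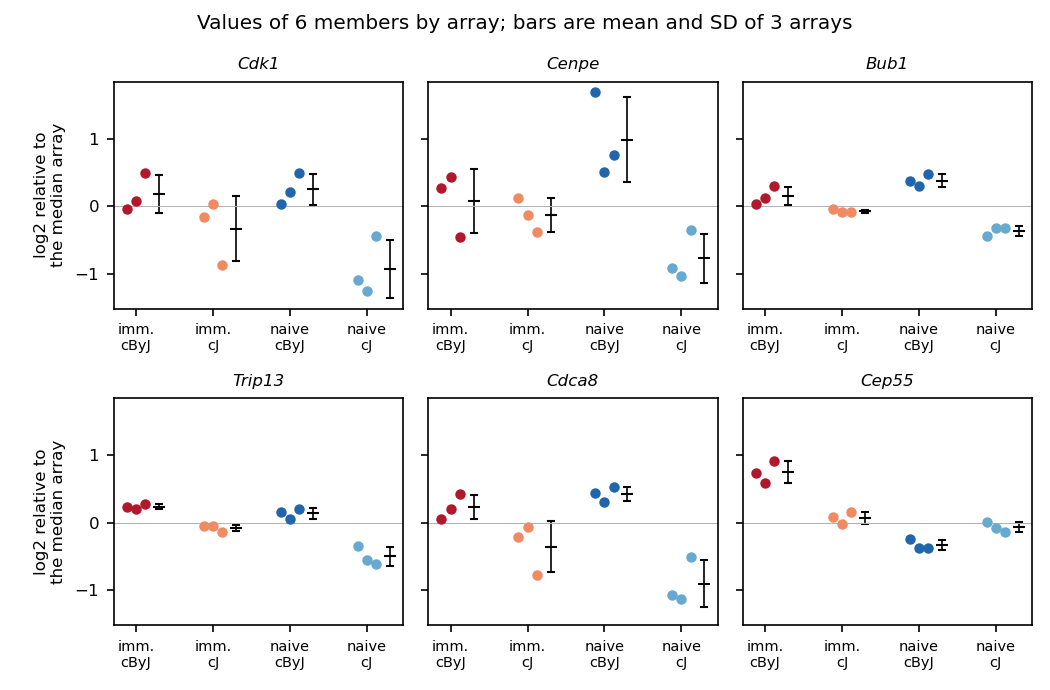
Log2 expression relative to the median array (vertical axis) of 6 members in the 4 groups (horizontal axis; imm., immunized). Points are arrays and bars are the mean and SD of 3 arrays. In Cdk1, Cenpe and Cdca8, naïve BALB/cJ replicate 3 lies above replicates 1 and 2; Bub1 and Trip13 separate the naïve colonies with little spread; Cep55 is highest in immunized BALB/cByJ.

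Genes outside the members were counted from lists of related genes. Among other mitosis genes, 92 of 134 probe sets (59 of 69 genes) were called higher in naïve BALB/cByJ and none lower, with a median of 0.81, led by Cdca2 (1.19), Troap (0.87) and Ncaph (1.18). Among DNA replication genes 56 of 88 probe sets (33 of 40 genes) were called higher and none lower, with a median of 0.65, led by Mcm6 (1.05), Dbf4 (0.82) and Mcm7 (0.83). Array medians of the replication genes were 0.13, 0.04 and 0.37 in naïve BALB/cByJ and -0.48, -0.57 and -0.30 in naïve BALB/cJ. Regulators of mitotic gene transcription were called higher in 13 of 41 probe sets (10 of 19 genes), with a median of 0.27. They included E2f7 (1.83), E2f1 (0.84) and E2f2 (1.28). Genes of cell cycle exit and G1 were called higher in 4 of 31 probe sets (3 of 13 genes: Ccnd3, Cdkn2d and Rb1), with a median of -0.06.

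Lists of markers of other cells were short and held from 0 to 2 calls each. Those between the naïve colonies were 0 of 11 granulocyte precursor probe sets (median -0.70), 0 of 13 germinal centre B cell probe sets (-0.20), 0 of 20 T cell probe sets (-0.06) and 0 of 12 adipose probe sets (-0.03) in limma. At an unadjusted p under 0.05 there were 6, 5, 2 and 0 of them. Called lower in BALB/cByJ were 2 of 15 plasma cell probe sets (median -0.26), 2 of 15 B cell probe sets (-0.27) and 1 of 25 heat shock probe sets (-0.07). Unadjusted p values under 0.05 in limma were found for 7 plasma cell, 10 B cell and 3 heat shock probe sets, all lower in BALB/cByJ. Of the pigment cell list 0 of 13 passed (-1.36, 11 at an unadjusted p under 0.05). The pancreatic acinar list had 2 of 17 called higher (0.95, 14 at an unadjusted p under 0.05). Over all probe sets 4.39% were called, and 18.7% had an unadjusted p under 0.05. The plasma cell (13.3%), B cell (13.3%) and pancreatic acinar (11.8%) lists had a larger share of calls than all probe sets. At an unadjusted p under 0.05 the T cell, heat shock and adipose lists had a smaller share than all probe sets. The other lists of this paragraph had a larger one.

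The members varied together over the 12 arrays. The median Pearson correlation between 2 member genes was 0.96 over 903 pairs, and 91.5% of pairs were over 0.5. With group means subtracted the median was 0.90. The same median was 0.92 for DNA replication genes and 0.97 for erythroid genes. These values are descriptions over arrays that the genes share. Ccna2 and Cdk1 followed the member median most closely (r = 0.996 for each over 12 arrays), and Cep55 (0.23), Kif15 (0.46) and Trip13 (0.83) least.

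**Figure D4:**
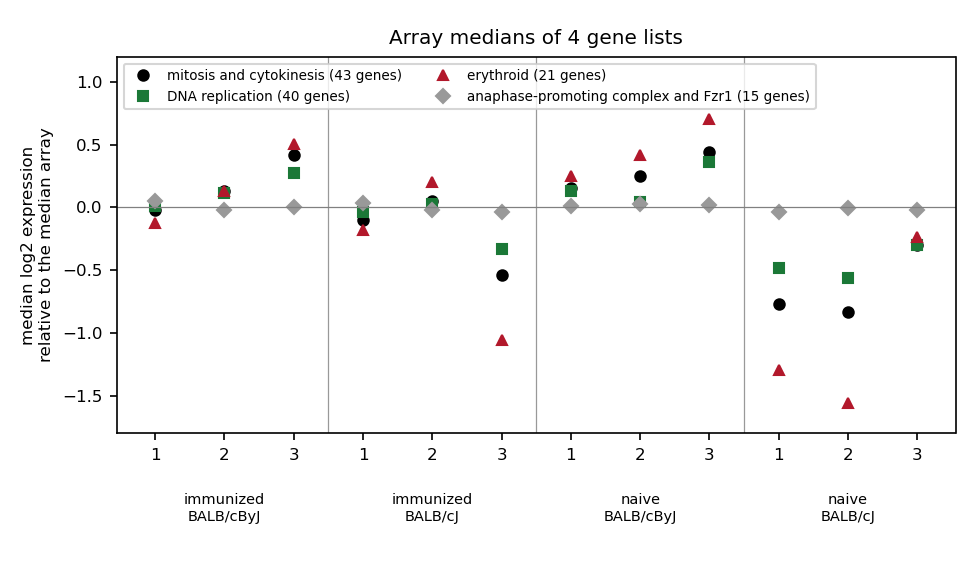
Median log2 expression relative to the median array (vertical axis) of 4 gene lists in each of 12 arrays (horizontal axis, 3 replicates of each of the 4 groups). Mitosis and cytokinesis, DNA replication and erythroid genes have their 2 lowest medians in replicates 1 and 2 of naïve BALB/cJ and are also below 0 in replicate 3 of both BALB/cJ groups. The anaphase-promoting complex list (subunits and Fzr1) stays between -0.04 and 0.05.

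In immunized mice, 1 of the 94 member probe sets passed between the colonies, that of Cep55 (1452242_at), beside 0.12% of all probe sets. The median difference (BALB/cByJ minus BALB/cJ) was 0.42, 80 probe sets were positive and 14 negative, and 43 (45.7%) had an unadjusted p under 0.05 in limma, beside 7.92% of all probe sets. The immunized colonies did not overlap for 34 of the 94 probe sets, beside 15% of all. Array medians were 0.01, 0.15 and 0.46 in immunized BALB/cByJ and -0.08, 0.02 and -0.57 in immunized BALB/cJ, so that BALB/cJ replicate 3 lay below and BALB/cByJ replicate 3 above the rest. Plk1 had 0.04, 0.32 and 0.63 in immunized BALB/cByJ and -0.18, -0.04 and -0.54 in immunized BALB/cJ. The groups did not overlap, and the difference of 0.58 (SE 0.173) had an adjusted p of 0.454 by limma. Trip13 (1429295_s_at) had 0.23, 0.21 and 0.28 in immunized BALB/cByJ and -0.05, -0.05 and -0.13 in immunized BALB/cJ (0.32, adjusted p = 0.372). Bub1 (1438571_at) had 0.04, 0.13 and 0.30 in immunized BALB/cByJ and -0.04, -0.09 and -0.09 in immunized BALB/cJ (0.23, adjusted p = 0.563). Neither of these probe sets overlapped between the colonies, but a further one of Trip13 (1446760_at, 0.10) did.

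Immunization was compared within each colony. In BALB/cByJ, 1 of 94 probe sets passed, again Cep55 (1452242_at), beside 0.0511% of all probe sets. The median difference (immunized minus naïve) was -0.09, 74 probe sets were negative, and 10 (10.6%) had an unadjusted p under 0.05, close to the 8.3% of all probe sets. In BALB/cJ, 0 of 94 passed in limma, as did 0% of all probe sets. There the median was 0.44, 90 probe sets were positive and 48 (51.1%) had an unadjusted p under 0.05, beside 9.19% of all probe sets. Other lists also lay away from 0, with no call among them in BALB/cJ. There the median was 0.62 over 31 erythroid probe sets (30 positive), 1.12 over 11 granulocyte precursor probe sets (11 at an unadjusted p under 0.05) and 0.56 over 25 heat shock probe sets (21 at an unadjusted p under 0.05). In BALB/cByJ the medians of these lists were -0.29, 1.64 and 0.28. Their part in the members' values was not tested. Trip13 had the smallest p in BALB/cJ, with -0.05, -0.05 and -0.13 in immunized mice and -0.33, -0.54 and -0.61 in naïve mice (0.42, SE 0.0831, adjusted p = 0.323). Bub1 (1438571_at) differed by 0.29 in BALB/cJ (adjusted p = 0.378) and by -0.22 in BALB/cByJ (adjusted p = 0.542). The other Bub1 probe set (1424046_at) differed by 0.73 in BALB/cJ and by 0.10 in BALB/cByJ, with adjusted p values of 0.364 and 0.914 by limma. The Bub1 probe sets thus differed in sign in BALB/cByJ. Cenpe (1439040_at) had 0.28, 0.43 and -0.46 in immunized BALB/cByJ and 0.12, -0.12 and -0.38 in immunized BALB/cJ. Its difference with immunization was -0.91 in BALB/cByJ and 0.64 in BALB/cJ, with adjusted p values of 0.476 and 0.551. The other Cenpe probe set (1435005_at) had 0.03, 0.23 and 0.67 in immunized BALB/cByJ. It differed by -0.15 in BALB/cByJ and by 0.49 in BALB/cJ, with adjusted p values of 0.885 and 0.548 by limma. Naïve BALB/cByJ replicate 1 was at 1.70 in 1439040_at and at 0.44 in 1435005_at.

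The difference between the responses (that of BALB/cByJ minus that of BALB/cJ) passed for 0 of 94 member probe sets in limma, as for 0% of all. Its median was -0.54, 90 probe sets were negative and 36 (38.3%) had an unadjusted p under 0.05, beside 7.59% of all probe sets. For the erythroid list the median was -0.996, with 31 of 31 probe sets negative. These comparisons share arrays, so low values in naïve BALB/cJ replicates 1 and 2 enter the naïve colony difference, the response of BALB/cJ and the difference of responses alike. Naïve arrays carry the sample numbers 10 to 15 (BALB/cByJ 10 to 12, BALB/cJ 13 to 15) and immunized arrays higher ones (BALB/cByJ 29, 31 and 48, BALB/cJ 33, 49 and 50). If these numbers stand for separate processing runs, runs and immunization cannot be told apart. Among naïve arrays, the order of the numbers and the colony cannot be told apart either.

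**Figure D5:**
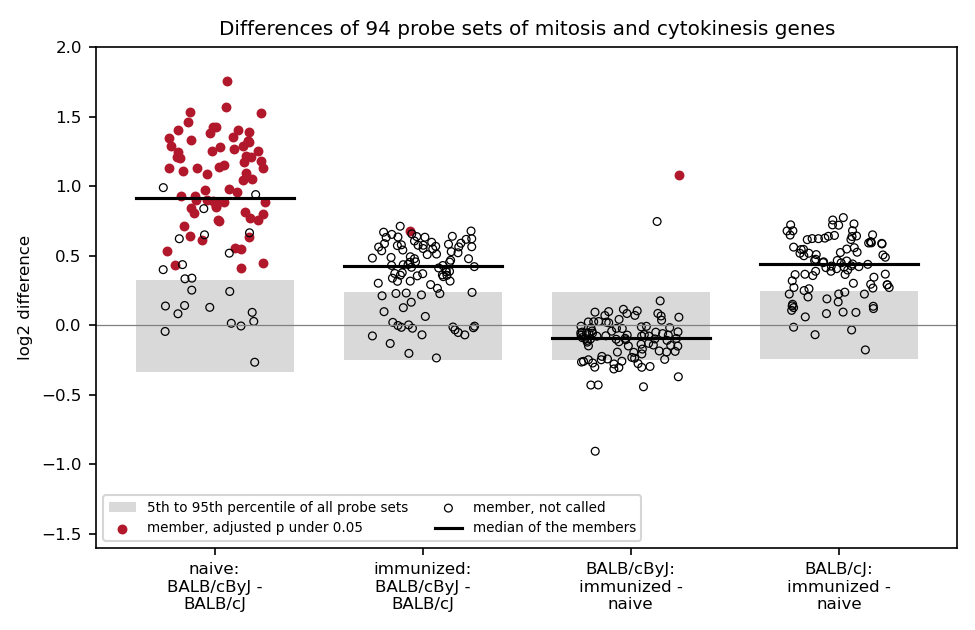
Log2 differences (vertical axis) of the 94 member probe sets in 4 comparisons (horizontal axis). Filled points passed at an adjusted p under 0.05 and open points did not; black lines are medians of the members (0.91, 0.42, -0.09 and 0.44 from left to right), and grey bands span the 5th to 95th percentile of all probe sets.

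Cep55 was the only member called with immunization, in BALB/cByJ alone and by 1 of its 2 probe sets. Probe set 1452242_at had 0.75, 0.59 and 0.92 in immunized BALB/cByJ, 0.09, -0.02 and 0.16 in immunized BALB/cJ, -0.25, -0.37 and -0.37 in naïve BALB/cByJ and 0.02, -0.07 and -0.13 in naïve BALB/cJ. Immunized BALB/cByJ lay above every other array. With immunization it rose by 1.08 in BALB/cByJ (SE 0.0926, 95% interval 0.88 to 1.28, adjusted p = 0.00157 by limma). In BALB/cJ the difference was 0.14 (95% interval -0.06 to 0.34, adjusted p = 0.689). It was higher in immunized BALB/cByJ than in immunized BALB/cJ by 0.67 (SE 0.0926, adjusted p = 0.00844). That call was lost, with the difference between 0.63 and 0.68, without immunized BALB/cByJ replicate 1 (adjusted p = 0.0504), immunized BALB/cJ replicate 1 (0.0515) or immunized BALB/cJ replicate 2 (0.0617). Between the naïve colonies it differed by -0.27 (adjusted p = 0.132), and naïve BALB/cByJ lay below naïve BALB/cJ without overlap. The responses of the colonies differed by 0.94 (SE 0.131), with an unadjusted p of 8.8e-06 and an adjusted p of 0.198.

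The second probe set of Cep55 (1453683_a_at) had 0.66, 0.18 and 0.82 in immunized BALB/cByJ, 0.16, -0.03 and 0.05 in immunized BALB/cJ, -0.28, -0.07 and -0.22 in naïve BALB/cByJ and 0.03, -0.39 and -0.25 in naïve BALB/cJ. Immunized BALB/cByJ was again above every other array. Its difference with immunization in BALB/cByJ was 0.75 (SE 0.150, adjusted p = 0.190 by limma), and between the immunized colonies it was 0.49 (adjusted p = 0.470). Between the naïve colonies it was 0.01.

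Germinal centre B cell genes had their highest array medians in the same 3 animals. The median of 9 such genes was 0.60, 0.46 and 0.68 in immunized BALB/cByJ, 0.05, 0.12 and 0.16 in immunized BALB/cJ, -0.23, -0.28 and -0.31 in naïve BALB/cByJ and 0.00, -0.04 and -0.13 in naïve BALB/cJ. With immunization in BALB/cByJ 6 of 13 probe sets of that list passed and 13 of 13 were positive (median 0.76). Between the immunized colonies 3 of 13 passed, all higher in BALB/cByJ. S1pr2 and Neil1, chosen after their values were seen, rose with immunization in BALB/cByJ by 1.21 (1428176_at) and 1.03 (1452871_at). The part of germinal centre B cells in the values of Cep55 was not tested.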

How the data were processed

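RNA of 12 spleens was hybridized to Affymetrix whole-genome mouse arrays, 3 animals in each of 4 groups. The authors summarized probe signals to the deposited log2 values with RMA in GeneSpring, quantile normalization included, and centred every probe set on the median array. No version of RMA was given in the sources used here. The methods call the scale logarithmic, and it was read as log2, which that procedure returns. No signal level remains, so dim probe sets could not be filtered, and the number of arrays limits the precision. All columns were of these samples (0 of others).

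After removal of 64 control probe sets, 45037 were tested. The array annotation gives 1 gene to 34945 probe sets, several to 932 and none to 9160. Probe sets with several genes were named for none. One linear model of the 4 group means was fitted to all 12 arrays with the limma package (3.58.1, R 4.3.3; lmFit, eBayes). Benjamini-Hochberg adjustment ran over every tested probe set, and 0.05 was the threshold for a call. The study's test, a 1-way analysis of variance with Student-Newman-Keuls comparisons, was among the alternatives, beside other normalizations, blocks, weights, gene-level means, an erythroid covariate and the omission of arrays. The scripts' fit was tested on simulated data. Promoter windows came from RefSeq tables of GRCm38.p6.

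The members and lists were chosen with earlier results of these data known. Values of every array are given for the most significant probe set of each role between the naïve colonies, for members called or with the smallest p in the other comparisons, for Cep55, Bub1 and Trip13, for members without a call and for genes whose probe sets differ in sign; Cdk1 was added. Of other lists up to 3 genes with the smallest p between the naïve colonies are named.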

Additional observations from a re-analysis of the deposited data

How the results depend on the processing

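The count of 71 member probe sets called between the naïve colonies was 64 with quantile normalization of the deposited values, 71 with array medians subtracted, 67 with a robust variance, 82 with array weights, 66 with the naïve arrays fitted alone, 78 at an adjusted p under 0.1 and 77 without the 4 arrays with pancreatic or heat shock genes. It was 3 (Bub1 and Trip13 higher, Cep55 lower) with the analysis of variance and Student-Newman-Keuls comparisons, 2 against a fold of 1.2, and 0 with the erythroid covariate, without the 4 arrays with pigment cell genes and without the 3 arrays with low erythroid genes. It was 40 of 56 without probe sets ending in _s_at, _x_at or _a_at and 41 of 43 at the level of genes, where fewer features were tested. The cause of the other changes was not tested. Leaving out single arrays gave 4 to 74. The share of all probe sets called in each alternative is not given here.

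The 1 call between the immunized colonies became 3 with the analysis of variance and 0 with the immunized arrays fitted alone, at the level of genes, against a fold of 1.2 and without the arrays with pancreatic or heat shock, pigment cell or low erythroid genes. Leaving out single arrays gave 0 to 1, with 0 without immunized BALB/cByJ replicate 1, immunized BALB/cJ replicate 1 or immunized BALB/cJ replicate 2. With immunization in BALB/cByJ the 1 call became 2 with the analysis of variance, and leaving out single arrays gave 1 to 2 (2 without immunized BALB/cByJ replicate 2). In BALB/cJ the count of 0 became 2 with the analysis of variance, 5 with array weights and 1 without the arrays with pancreatic or heat shock genes. For the difference of the responses it was 0 in every alternative run.

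The replicate block gave 68, 1, 1, 0 and 0 calls in the 5 comparisons and changed the call of no probe set named with its values. Deviations of same-numbered arrays had r from -0.29 to 0.37 (18 pairs, median 0.10). With 3 arrays in a group these values cannot settle whether the numbers pair the animals. The main fit used no pairing.

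Some differences changed sign. Cdca3 (1448000_at) was 0.0012 with array medians subtracted and 0.016 with array weights, and -0.078 to 0.088 without single arrays. Racgap1 (1441889_x_at) was 0.033 with array weights and 0.0057 without the pigment cell or low erythroid arrays, and from -0.085 to 0.020 without single arrays. Kif20a, 0.94 and just short of a call, was -0.052 and Cep55 (1453683_a_at) -0.015 with the erythroid covariate, and Cep55 (1453683_a_at) ranged from -0.080 to 0.13 without single arrays. With that covariate 15 of the 94 probe sets went to a negative difference, 4 of them called without it. A filter on dim probe sets was not run because the values hold no signal level.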
